A study of Mus musculus with 16 samples.

Results

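At postnatal day (P) 2, sorted cardiomyocytes (CMs) with a high surface level of integrin α6 (ITGA6, also named CD49f) differed from those with a low level in far more than their chamber markers. ITGA6-high cells, called PH, carried more RNA for both subunits of the nitric oxide receptor guanylate cyclase, for 11 of 90 matrix proteases and inhibitors (12.2%) and for 13 of 81 other matrix proteins (16%), beside 2.61% of all genes. ITGA6-low cells, called PL, carried more RNA for 5 Iroquois transcription factors, among them the chamber marker *Irx4*, beside 1.3% of all genes. Of the 5, *Irx2* and *Irx5* lost their calls with another background correction. By less than 3-fold and by adjusted p alone, PL also carried more RNA for 15 of 16 detected enzymes of β-oxidation of fatty acids, beside 14.2% of all detected genes. The gene lists were chosen with earlier results of these data known, and the count of β-oxidation enzymes after the values were seen. The comparison rests on all 4 microarrays of PH against all 4 of PL, 8 of the 16 microarrays in the series. They were chosen by their labels alone, without any measured value.

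Both fractions came from hearts of wild-type CD1 mice aged 2 days, and neither carried a transgene. In each of 4 experiments the hearts of 15 newborns were pooled, non-myocytes were removed with magnetic beads, and living cells (negative for propidium iodide) were sorted by CD49f into PL and PH. A microarray therefore measured a pool of animals, and ITGA6, the protein used for the gate, is the property by which the groups were made. The other 8 microarrays held ITGA6-low (EL) and ITGA6-high (EH) cells of embryonic day (E) 15.5 hearts of the same strain, pooled from 20 to 30 embryos and first selected for the CM surface protein ERBB-2, with 4 microarrays per group. These served to share the estimate of the spread and to ask which differences were larger or smaller at P2.

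Integrin α6 is a cell surface receptor for laminins, the main adhesive proteins of basement membranes. Atrial CMs are known as endocrine cells that store and release natriuretic peptides, contract fast and relax under vagal control through potassium channels. Ventricular CMs bear the pressure load, rely on strict control of calcium uptake into the sarcoplasmic reticulum and, around birth, turn from glucose to fatty acids as their main fuel. Cyclic GMP, which is made by the nitric oxide receptor and by natriuretic peptide receptors and removed by phosphodiesterases, acts in both chambers on contraction and growth.

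Each microarray carried 55681 different probes of 60 bases that are not controls, and values are the deposited quantile-normalized log2 values, shown on the linear scale as normalized signals without unit. Where 4 signals are given, they are those of replicates 2, 3, 4 and 5 in this order. On the PL microarrays of replicates 2, 3, 4 and 5, 39.8%, 39.3%, 36.0% and 35.7% of the probes were marked by the scanner software as well above background, and on the PH microarrays 40.6%, 37.0%, 39.3% and 37.4%. Pearson correlations across probes were 0.976 to 0.986 between PL microarrays, 0.980 to 0.985 between PH microarrays and 0.964 to 0.974 between a PL and a PH microarray. The same differences were tested for every probe with limma, and a probe was called where the Benjamini-Hochberg adjusted p over all probes was at most 0.05 and the change at least 3-fold. By this rule 966 probes (1.73% of all) were higher in PH and 510 (0.916%) were lower. With normexp background correction these counts were 276 and 142, and with signals floored at the lowest value well above background 572 and 302. With 1 probe per gene, 619 of 23703 genes (2.61%) were higher and 308 (1.3%) were lower. Of the 11751 genes detected, meaning well above background on all 4 microarrays of PL or of PH, all PH signals lay above all PL signals for 18.6% and below for 14.6%. By adjusted p alone 18.3% of the detected genes were higher in PH and 14.2% lower, and 5654 had an unadjusted p under 0.05. Among the called genes the groups did not overlap for 602 of the 619 and 298 of the 308. In 270 of the higher and 122 of the lower genes, no microarray of the dimmer fraction was well above background, so that only a bound of the fold-change can be given, which is written as "at least". This bound sets the brighter fraction against the lowest signal that was still well above background on each dim microarray, or the gene's own signal where that was higher.

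Chamber markers were checked first. *Sln*, the atrial regulator of the calcium pump SERCA, had signals of 704, 3098, 6836 and 1124 in PL replicates 2, 3, 4 and 5 and 128108, 147362, 149729.6 and 161929 in the PH replicates of the same numbers. All 14 genes of a list of atrial markers were called higher in PH and all 8 of a list of ventricular markers were called lower. *Nppa* (atrial natriuretic peptide) was 19.5-fold and *Gja5* (connexin 40) 42.4-fold higher, whereas *Myl2* (ventricular regulatory light chain) was 9.02-fold and *Irx4* 47.5-fold lower. These lists were known to separate the fractions when they were drawn up and only check the labels. All of their genes except *Lbh*, such as *Sln*, *Nppa*, *Myl2* and *Irx4*, are also counted in family lists below. Of 15 genes common to all CMs, 15 were detected and 0 were called with limma or with the test of the study's methods. By adjusted p alone 2 were higher and 4 lower, beside 18.3% and 14.2% of all detected genes. Without PL replicate 2 or 3 or PH replicate 3 or 5, 2 were lower. An unadjusted p under 0.05 was found for 8, beside 5654 of all 11751 detected genes. The median log2 fold-change was -0.09. Scaling to the 75th percentile in place of quantiles moved this median to -0.46, beside -0.03 over all detected genes. *Actc1* (cardiac actin), for example, was 288803 ± 12174 (SD, n = 4) in PL and 267692 ± 16105 in PH. Transcripts of *Itga6* itself had signals of 240.3, 251, 316 and 332 in PL and 6427, 5709, 6686 and 6975 in PH, 22.8-fold more, and 1 of its 2 probes was called (log2 fold-change 4.51), while the other probe, the brighter one, had 0.11 (adjusted p = 0.868). In RNA of many cells, fewer cells of a type and less RNA per cell cannot be told apart, here and in all results that follow.

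Atrial transcripts in PL varied between the microarrays. Expressed as a percentage of the PH mean, the median over the 14 atrial markers was 1.40%, 2.84%, 5.06% and 1.66% in PL replicates 2, 3, 4 and 5. For *Sln* alone, these percentages were 0.479%, 2.11%, 4.66% and 0.766%. Replicate 4 stood highest and replicate 3 next. The guanylate cyclase subunit *Gucy1a1*, with 3 of 4 PL microarrays well above background, stood in the same order, with 0.904%, 2.34%, 2.55% and 1.09%. The percentages of *Itga6* were 3.73%, 3.88%, 4.90% and 5.15%, with replicate 5 highest. For the other 214 genes that were higher in PH and well above background on all 8 microarrays, the medians were 20.2%, 22%, 22.5% and 20.3%. Of these 214 genes, 85 had their highest PL signal in replicate 4, 66 in replicate 3, 35 in replicate 5 and 28 in replicate 2. In PH the ventricular genes were closer together. The 8 ventricular markers had medians of 10.5%, 9.11%, 13.5% and 10.8% of the PL mean, and *Smyd2*, a lysine methyltransferase, had 2.57%, 1.75%, 2.33% and 2.05%. A few cells of the other chamber and a low level in every cell cannot be told apart either.

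**Figure D1:**
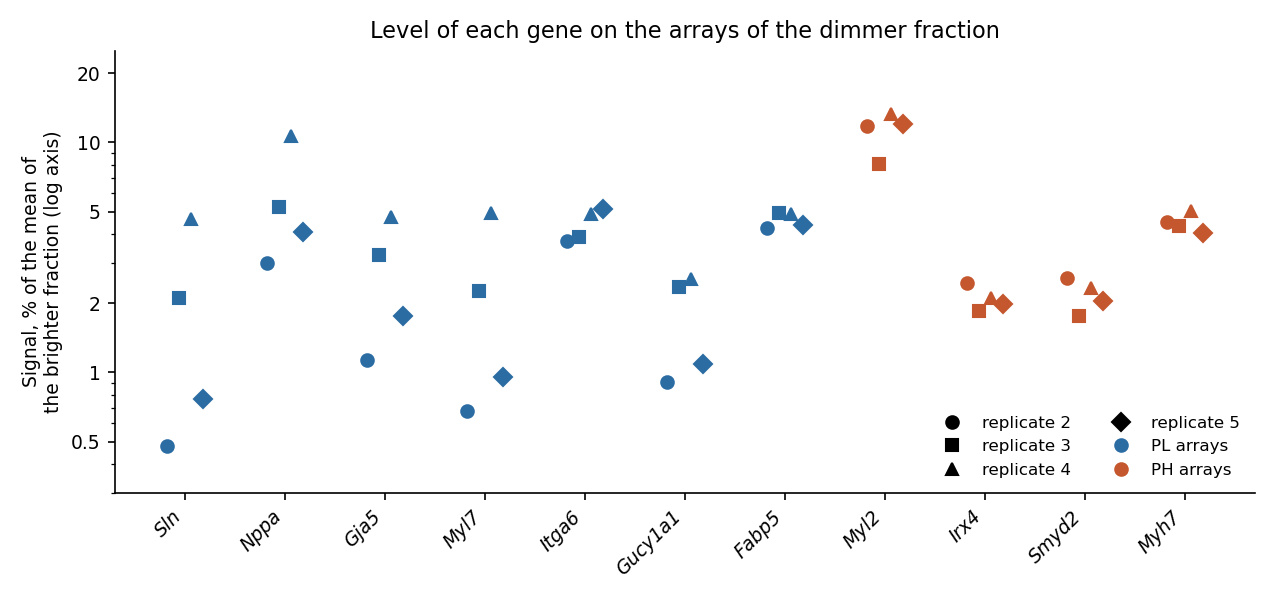
Signal of single genes on each microarray of the fraction in which they were dimmer, as a percentage of their mean in the brighter fraction, on a log axis. Blue symbols are PL microarrays and orange symbols PH microarrays, with a symbol shape per replicate. *Sln*, *Nppa*, *Gja5* and *Myl7* were highest in PL replicate 4 and lowest in replicate 2, whereas *Itga6* and *Fabp5* spread less.

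Markers of other cell types were checked as whole lists, because the bead depletion could leave such cells in either fraction. Of 15 endothelial and endocardial genes, 5 were detected, 0 were called higher and 1 (6.67%) lower with limma, beside 2.61% and 1.3% of all genes. Their summed signals were 1151, 1214, 2210.3 and 2591 in PL and 1622, 1858, 1729.8 and 2463 in PH, *Egfl7* was the brightest, and *Cdh5*, *Tek*, *Tie1*, *Emcn* and *Esam* were well above background on 0 of 8 microarrays. Among the 5 detected, PH lay above PL without overlap for 3 and below for 1, beside 18.6% and 14.6% of all detected genes. By adjusted p alone 1 was higher and 1 lower, beside 18.3% and 14.2%. Their median log2 fold-change was 0.60 (0.18 with normexp background correction). The gene called lower was *Robo4*, a guidance receptor of blood vessels, with 224, 190.0, 291 and 309 in PL and 21.6, 18.5, 14.5 and 17.7 in PH, where 1 of 4 microarrays was well above background. Of 12 fibroblast genes, 6 were detected, 1 (8.33%) was called higher (*Fbln1*) and 1 lower (*Postn*), beside 2.61% and 1.3% of all genes. Summed signals were 1738, 928, 667 and 750.1 in PL and 1429, 2301, 2233 and 1827 in PH, *Col1a2* was the brightest, and *Pdgfra*, *Tcf21*, *Thy1* and *Dpt* were at background on all 8.

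Smooth muscle genes did not move together. Of 10 genes on this list, 5 were detected, 3 (30%) were called higher and 2 (20%) lower, beside 2.61% and 1.3% of all genes, and *Myh11*, *Notch3*, *Pdgfrb* and *Rgs5* were at background on all 8 microarrays. *Cnn1* and *Tagln*, which encode calponin and transgelin on actin filaments, were 5.37-fold and 8.03-fold higher in PH. *Acta2* (smooth muscle actin, also present in immature CMs) had signals of 31216, 16532, 28153 and 39814 in PL and 3648, 3522, 3200.3 and 6229.9 in PH, without overlap and 6.89-fold lower. As the brightest gene, it set the summed signals of the list, which were 34008, 18723, 31267 and 42633 in PL and 14541, 12753, 9418 and 14776 in PH. The part of these cells in the differences below was not tested.

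Most epicardial, blood and nerve markers on these lists were not detected. Of 11 epicardial genes, 3 were detected and 2 (18.2%, beside 2.61% of all genes) were called higher, *Wt1* and *Krt19*. With signals floored at the lowest value well above background, the log2 fold-change of *Wt1* was 0.51 (adjusted p = 0.359) and its call was lost, and both calls were lost with normexp background correction (0.54 and 0.66). *Krt18* was the brightest, *Upk1b*, *Upk3b*, *Lrrn4* and *Krt7* were at background on all 8, and summed signals were 737, 695, 518 and 923 in PL and 954, 818, 863 and 965 in PH. Of 15 leukocyte genes, 2 were detected and 0 called with limma or the methods' test (1, *Itgam*, was lower by adjusted p alone, with a log2 fold-change of -1.25), and *Ptprc*, *Cd68*, *Lyz2* and *Tyrobp* were among the 12 at background on all 8. *Itgam* gave most of their summed signals of 9648, 4559, 12049 and 6536 in PL and 3338, 3464, 3172 and 3364 in PH. Of 10 erythroid genes, 4 were detected and 0 called with either test (0 with an unadjusted p under 0.05), with *Hba-a2* the brightest, *Ahsp* at background, and summed signals of 3513, 2018, 2464 and 2559.5 in PL and 1533, 1080.5, 1496 and 1227 in PH. Of 11 nerve and Schwann cell genes, 4 were detected, 1 (9.09%) was called higher (*Mbp*) and 1 lower (*Dct*), beside 2.61% and 1.3% of all genes. *Sox10* and *Foxd3* were at background on all 8, *Mbp* was the brightest, and summed signals were 726, 574, 572 and 907 in PL and 1531, 1499.6, 1670.5 and 1639 in PH.

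Outside the chamber lists, the genes with the highest fitted fold-changes in PH were of several kinds. *Sbk3*, which encodes a kinase with an SH3-binding region, had signals of 47.3, 239, 675 and 119.8 in PL and 21203, 22042, 35169 and 19430.0 in PH. It was 137-fold higher (log2 fold-change 7.09, adjusted p = 2.33e-06), with a log2 fold-change of 6.47 without PL replicate 2 and 7.75 without PL replicate 4, and its PL signals stood in the same order as the medians of the atrial markers. *Camk1d*, a calcium/calmodulin-dependent kinase, was 136-fold higher, with 2 of 4 PL microarrays well above background (log2 fold-change 7.09, and 6.26 or 7.69 without PL replicate 2 or 4, 6.42 with the floor and 4.86 with normexp), and *Mybphl*, a relative of myosin-binding protein H, was 126-fold higher. *Dkk3*, a secreted member of the Dickkopf family, had signals of 147, 448, 751 and 317 in PL and 24088, 22350.2, 28625 and 27669 in PH, and *Mlana*, a pigment cell protein, had 39.2, 73.2, 213 and 47.6 in PL and 8387, 5761, 8756 and 5503 in PH. For each of these genes every PH microarray lay above every PL microarray. Also among the 12 highest were *Podn* (podocan, a matrix proteoglycan, 69.1-fold) and *Antxr1* (a collagen-binding receptor, 62.5-fold). *Antxr1* was well above background on 2 of 4 PL microarrays, and its log2 fold-change of 5.97 became 6.61 without PL replicate 4, 4.67 with the floor and 3.19 with normexp. Only 1 of its 2 probes was called, and with the median over both the call was lost (3.17, adjusted p = 0.112). *Npy1r*, a receptor for the sympathetic co-transmitter neuropeptide Y, *Folr1*, a folate receptor, and *Rprm* (reprimo, a cell cycle inhibitor) were at background on all 4 PL microarrays, so that their place rests on fitted values. They were at least 55.1-fold, at least 17.1-fold and at least 16.2-fold higher, and of *Folr1* 1 of 2 probes was called, with the call lost for the median over both (log2 fold-change 3.30, adjusted p = 0.348). *Stard10*, a phospholipid carrier, had 105, 188, 309 and 145 in PL and 4644, 5777, 5553 and 4715 in PH, 29.8-fold higher.

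The genes most reduced in PH by fitted fold-change outside the chamber lists were also of several kinds. *Smyd2* had signals of 25709, 24662, 21679 and 22883 in PL and 611, 414, 553 and 487 in PH, 46.4-fold lower (log2 fold-change -5.53, standard error 0.13, adjusted p = 3.61e-11). The groups lay far apart, and the replicates of each were close. *Ddc*, the decarboxylase that makes dopamine and serotonin, had 13134, 15760.2, 9185 and 10668 in PL and 452, 649, 487 and 492 in PH. *Lrtm1*, a leucine-rich membrane protein, had 2171, 2023, 2151 and 2183 and 44.3, 70.6, 59.8 and 52.2, and *Plekhh1* 3026, 2051, 2412 and 1939 and 59.4, 36.7, 76.5 and 62.7. *Mapt*, which encodes the microtubule-binding protein tau, was 20.4-fold lower and all 3 of its probes were called. *Tuba8*, an α-tubulin, was 32.9-fold lower with 2 of 4 PH microarrays well above background (log2 fold-change -5.04, and -4.97 with the floor and -3.40 with normexp), and *Ush1c*, a scaffold protein, 35.7-fold lower. *Prdm16*, a transcription factor of ventricular compaction, was at least 10.3-fold, the adhesion protein *Cdh3* (P-cadherin) at least 8.91-fold and the nuclear protein *Tox* at least 12.3-fold lower. These were at background on all 4 PH microarrays, so that their place among the most reduced rests on fitted values, and genes measured in both fractions, such as *Fgf9* (15.3-fold lower), fell by more than these bounds.

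**Figure D2:**
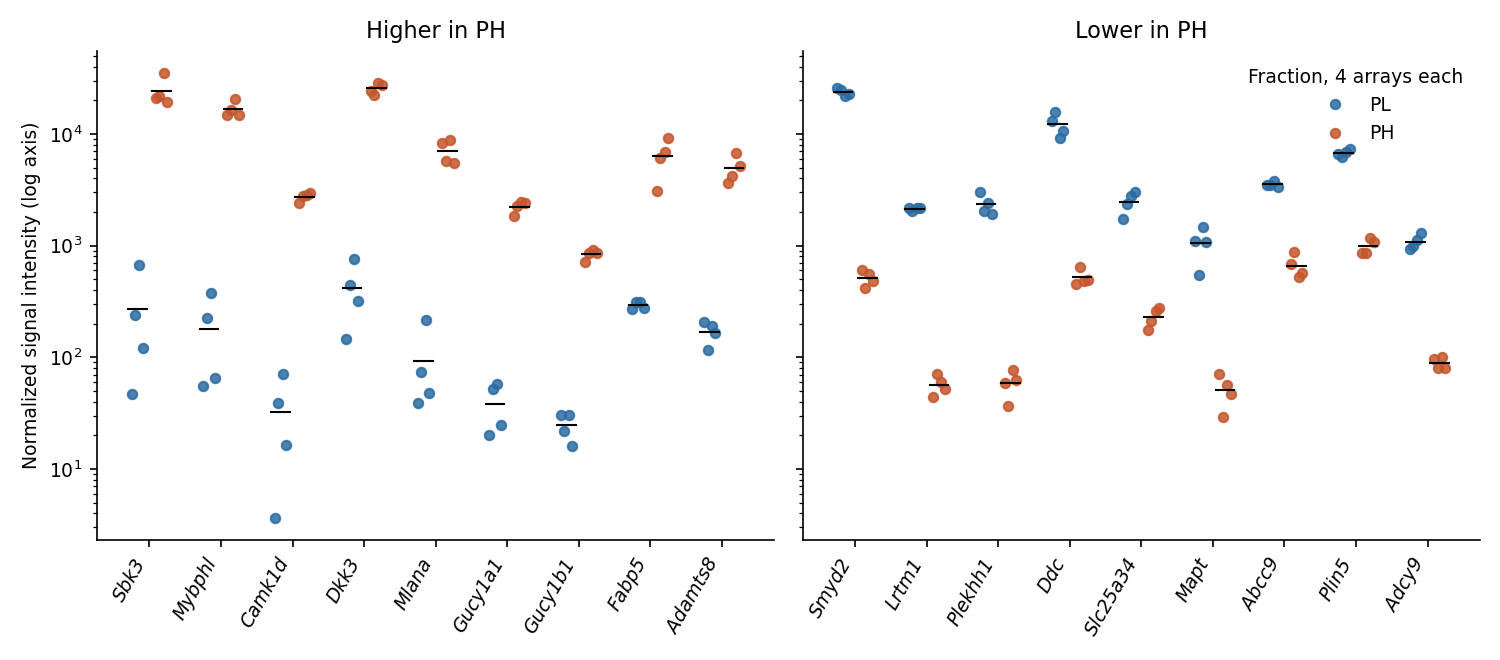
Normalized signals of 18 genes on a log axis, with a point per microarray (4 PL in blue, 4 PH in orange) and black lines for the group means. In all 18 genes the PL and PH points do not overlap. *Sbk3* and *Mybphl* are scattered over a wide range in PL, whereas *Smyd2* and *Lrtm1* are tightly grouped in PL.

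Both subunits of the nitric oxide receptor were called higher in PH. *Gucy1a1* and *Gucy1b1* encode the α1 and β1 subunits of soluble guanylate cyclase, which must pair to form the nitric oxide receptor. *Gucy1a1* (probe at chr3:81896409-81896468, mm9) had signals of 20.2, 52.3, 57 and 24.5 in PL and 1832, 2268, 2439 and 2415 in PH, 63.8-fold higher (log2 fold-change 5.99, adjusted p = 7.19e-09, and 4.51 with normexp background correction). *Gucy1b1* (probe at chr3:81836142-81836201) had 30.1, 22, 30.7 and 15.9 in PL, where 1 of 4 microarrays was well above background, and 712, 862, 918 and 864 in PH, 35-fold higher (log2 fold-change 5.13, adjusted p = 7.28e-10). With so few PL signals above background the size is uncertain, and the log2 fold-change was 4.99 with dim signals floored at the lowest value well above background and 3.23 with normexp background correction. In ITGA6-low cells, *Gucy1a1* was well above background on 3 of 4 microarrays, and both subunits stayed far below every PH microarray. Both genes lie next to each other on chromosome 3 in the RefSeq order of genes, on the same strand. Since they moved together, their start regions are shown, as the 250 bases before and 50 after a start annotated by RefSeq on GRCm38.p6, with any match to AGGTGT, a half-site of T-box factors such as TBX5, in capitals. The first is 1 of 2 annotated starts of *Gucy1a1*, at chr3:82145601-82145900 on the minus strand, and the other is *Gucy1b1*, at chr3:82074662-82074961 on the minus strand.
Gucy1a1: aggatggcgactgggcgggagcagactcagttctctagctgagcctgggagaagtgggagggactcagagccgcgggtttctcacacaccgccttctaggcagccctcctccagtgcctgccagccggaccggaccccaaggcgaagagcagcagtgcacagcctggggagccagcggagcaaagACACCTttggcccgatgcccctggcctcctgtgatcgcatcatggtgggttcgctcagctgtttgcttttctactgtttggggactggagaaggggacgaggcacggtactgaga
Gucy1b1: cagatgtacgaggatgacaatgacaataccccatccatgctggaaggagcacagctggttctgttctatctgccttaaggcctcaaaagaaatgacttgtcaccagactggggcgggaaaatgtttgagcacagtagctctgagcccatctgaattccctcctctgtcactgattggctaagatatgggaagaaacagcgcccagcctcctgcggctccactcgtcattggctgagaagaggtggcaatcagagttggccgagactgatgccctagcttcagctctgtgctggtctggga
The *Gucy1a1* window shown held 1 match, on the opposite strand (ACACCT), whereas the window of its second start (chr3:82145024-82145323) and the *Gucy1b1* window held 0. None of them held AGGTCA, a half-site of nuclear receptors such as NR2F2. When both strands were searched in 32851 start windows of mouse genes, AGGTGT occurred in 13.7% of all windows, in 13.7% of the 619 windows of genes higher in PH and in 11.9% of the 286 windows of genes lower in PH. AGGTCA occurred in 16.3%, 10.8% and 17.8%. A start window was listed for 459 of the 619 higher and 227 of the 308 lower genes, some with several windows, and these shares describe letters, not binding.

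Single genes that respond to cyclic GMP or break it down were called in both directions, and no list of their own was counted. *Mrvi1*, a substrate of cyclic GMP-dependent kinase on the calcium store, had signals of 3.34, 33.3, 31.7 and 3.40 in PL, of which 2 were well above background, and 1301, 1574, 1314 and 1498 in PH, 135-fold higher (log2 fold-change 7.08, and 5.82 with the floor and 4.33 with normexp). The kinase *Prkg1* was 2.10-fold higher in PH (adjusted p = 0.002), below the limit of 3-fold. Of the phosphodiesterases that break down cyclic GMP, *Pde2a* was 11.8-fold and *Pde9a* at least 5.59-fold higher in PH (*Pde9a* not called with normexp, log2 1.24), whereas *Pde5a*, the target of sildenafil, was 3.26-fold lower. *Pde5a* had signals of 1228, 835, 1280.1 and 707 in PL and 329, 179, 379.8 and 366 in PH, and 1 of its 2 probes was called. Without PL replicate 4 or PH replicate 3 its log2 fold-change was -1.58 or -1.46, and with normexp -1.51, below the limit of 3-fold. The natriuretic peptide receptor gene *Npr2* was 1.23-fold higher (adjusted p = 0.0413), far below the limit. *Prkg1*, *Pde9a* and *Npr2* were singled out after their values were seen, as were *Chrm2*, *Rgs6*, *Kcnj11* and *Kcnj8* below.

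In the whole list of 152 genes of cyclic nucleotide and G protein signalling, 86 were detected, 15 (9.87%) were called higher and 4 (2.63%) lower, beside 2.61% and 1.3% of all genes. The detected genes had a median log2 fold-change of 0.19, beside 0.02 over all detected genes. Adenylate cyclases went both ways. *Adcy1*, which is stimulated by calcium, had signals of 16.7, 14.5, 19.7 and 13.1 in PL, where 1 of 4 microarrays was well above background, and 497, 434, 491 and 374 in PH, 28.2-fold higher (log2 fold-change 4.82, and 4.5 with the floor and 2.81 with normexp), whereas *Adcy9* had signals of 937, 999, 1119.8 and 1289 in PL and 95.8, 80.6, 99.8 and 79.4 in PH, 12.2-fold lower. *Gnao1* (the G protein subunit αo) was 13.1-fold higher, and *Gnb2*, the brightest of the list, had 28466 ± 1578 in PL and 28564 ± 758 in PH.

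For the vagal potassium current, both channel subunits were called higher in PH. *Chrm2*, the muscarinic M2 receptor, was 3.12-fold higher (log2 fold-changes of 1.47, 1.56 and 1.55, below the limit, without PL replicate 2, PL replicate 5 or PH replicate 3, and 1.44 with normexp) and *Rgs6*, which shortens the signal of inhibitory G proteins, 2.57-fold (adjusted p = 9.13e-05, below the limit of 3-fold). *Kcnj3* and *Kcnj5* encode both subunits of the channel. *Kcnj3* was at least 23.2-fold higher. *Kcnj5* had signals of 2500.5, 2990.1, 2748 and 2650.4 in PL and 8853, 9776, 11465 and 10499 in PH, 3.72-fold higher, so that PL contained its transcript at a level well above background on all 4 microarrays while *Kcnj3* was well above background on 0 of 4.

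Other potassium channel genes also divided by fraction. Of 97 on the array, 26 were detected, 6 (6.19%) were called higher and 3 (3.09%) lower, beside 2.61% and 1.3% of all genes. The ATP-sensitive channel showed a difference in its regulatory subunit. *Abcc8* (SUR1) had signals of 6445, 5025, 5922 and 4754 in PL and 27612, 18344, 22443 and 18523 in PH, 3.90-fold higher, and *Abcc9* (SUR2) had 3512, 3507, 3761 and 3380.5 in PL and 679.8, 874, 526 and 572 in PH, 5.44-fold lower. Neither gene had overlapping groups. The pore subunits differed less, with *Kcnj11* (Kir6.2) at 424 ± 51.2 in PL and 583 ± 75.3 in PH (adjusted p = 0.0129) and *Kcnj8* (Kir6.1) at 53.5 ± 14.6 and 67 ± 12.2 (adjusted p = 0.466). The inward rectifier *Kcnj4* (Kir2.3) was at least 6.63-fold and *Kcnip2*, the partner of the transient outward channel, 3.68-fold lower in PH. The call of *Kcnip2* was lost without PH replicate 3 (log2 fold-change -1.66, adjusted p = 0.051) and with normexp (-1.27), and that of *Kcnj4* with normexp (-1.29). *Kcnk3* (TASK-1) was 1.98-fold higher (adjusted p = 5.60e-06), below the limit.

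Of 100 sodium, calcium, HCN, TRP and chloride channel genes, 48 were detected, and 9 (9%) were called higher and 3 (3%) lower, beside 2.61% and 1.3% of all genes. *Scn10a* (Nav1.8) had signals of 308, 351, 636 and 305 in PL and 5749, 3346, 3466 and 3047 in PH. Every PH microarray lay above every PL microarray. Auxiliary subunits of calcium channels were called in both directions. *Cacna2d2* was 9.69-fold and *Cacnb3* 8.67-fold higher in PH, whereas *Cacng6* was at least 15.4-fold lower. *Cacna1s*, better known from skeletal muscle, was 4.78-fold lower with both probes called, and *Scn4b*, a sodium channel β subunit, at least 1.90-fold lower. The call of *Scn4b* was lost with the floor (log2 fold-change -0.92) and with normexp (-0.61), and that of *Cacna1s* with normexp (-1.30). For *Cacna2d2*, 1 of 2 probes was called.

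In calcium cycling, the release channels *Ryr3* and *Itpr2* and the pump inhibitors *Sln* and *Pln* differed, while the pump did not pass the test. *Ryr2*, another release channel on this list, was not called. Of 41 genes, 37 were detected, 4 (9.76%) were called higher and 3 (7.32%) lower, beside 2.61% and 1.3% of all genes. These counts include *Sln*, *Slc24a4* and *Pln*, which are on the chamber lists. *Slc24a4*, a sodium/calcium/potassium exchanger, was at least 22.7-fold higher. *Ryr3*, a release channel of low abundance in heart, had signals of 31.7, 35.3, 48.9 and 20.7 in PL, of which 3 were well above background, and 1829, 1011, 841 and 904 in PH, 33.4-fold higher. Its log2 fold-change was 5.06, with the floor 5.01 and with normexp 3.60. *Fkbp1b*, which binds to ryanodine receptors, was 3.44-fold higher. In the opposite direction, *Pln* (phospholamban, the ventricular inhibitor of SERCA) had 10668, 13373, 7585 and 7378 in PL and 903, 995, 1343 and 939.7 in PH, 9.16-fold lower. *Itpr2*, the inositol trisphosphate receptor of CMs, was 5.69-fold and *Stim1*, the sensor of store filling, 3.53-fold lower, each with both probes called. *Atp2a2* (SERCA2) had 40119, 40510.3, 33994 and 31806 in PL and 47282, 42998, 57649 and 42849.8 in PH, without overlap, a ratio of the means of 1.30-fold (adjusted p = 0.0512), and the calcium-binding protein *Hrc* had 28389 ± 4128 and 29239.5 ± 3381.

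Of 80 sarcomere and Z disc genes, 68 were detected, 11 (13.8%) were called higher and 8 (10%) lower, beside 2.61% and 1.3% of all genes, with a median log2 fold-change of 0.03 (-0.16 when scaled to the 75th percentile). Besides the light chains on the chamber lists, *Mylk4*, a myosin light chain kinase, was at least 2.69-fold higher in PH. *Ankrd23*, a stretch-responsive protein bound to titin, had signals of 2886, 1772, 2395 and 1906 in PL and 359, 304, 314 and 197 in PH, 7.67-fold lower, and *Myot* (myotilin of the Z disc) was at least 2.46-fold lower. *Myh6* (α-myosin heavy chain) had 271325 ± 11243 in PL and 256346 ± 25178 in PH (adjusted p = 0.749), whereas *Myh7* (β-myosin heavy chain) was 22.3-fold lower. Neither *Mylk4* nor *Myot* kept its call with the floor (log2 fold-changes of 1.43 and -1.30) or with normexp (0.76 and -0.42).

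**Figure D3:**
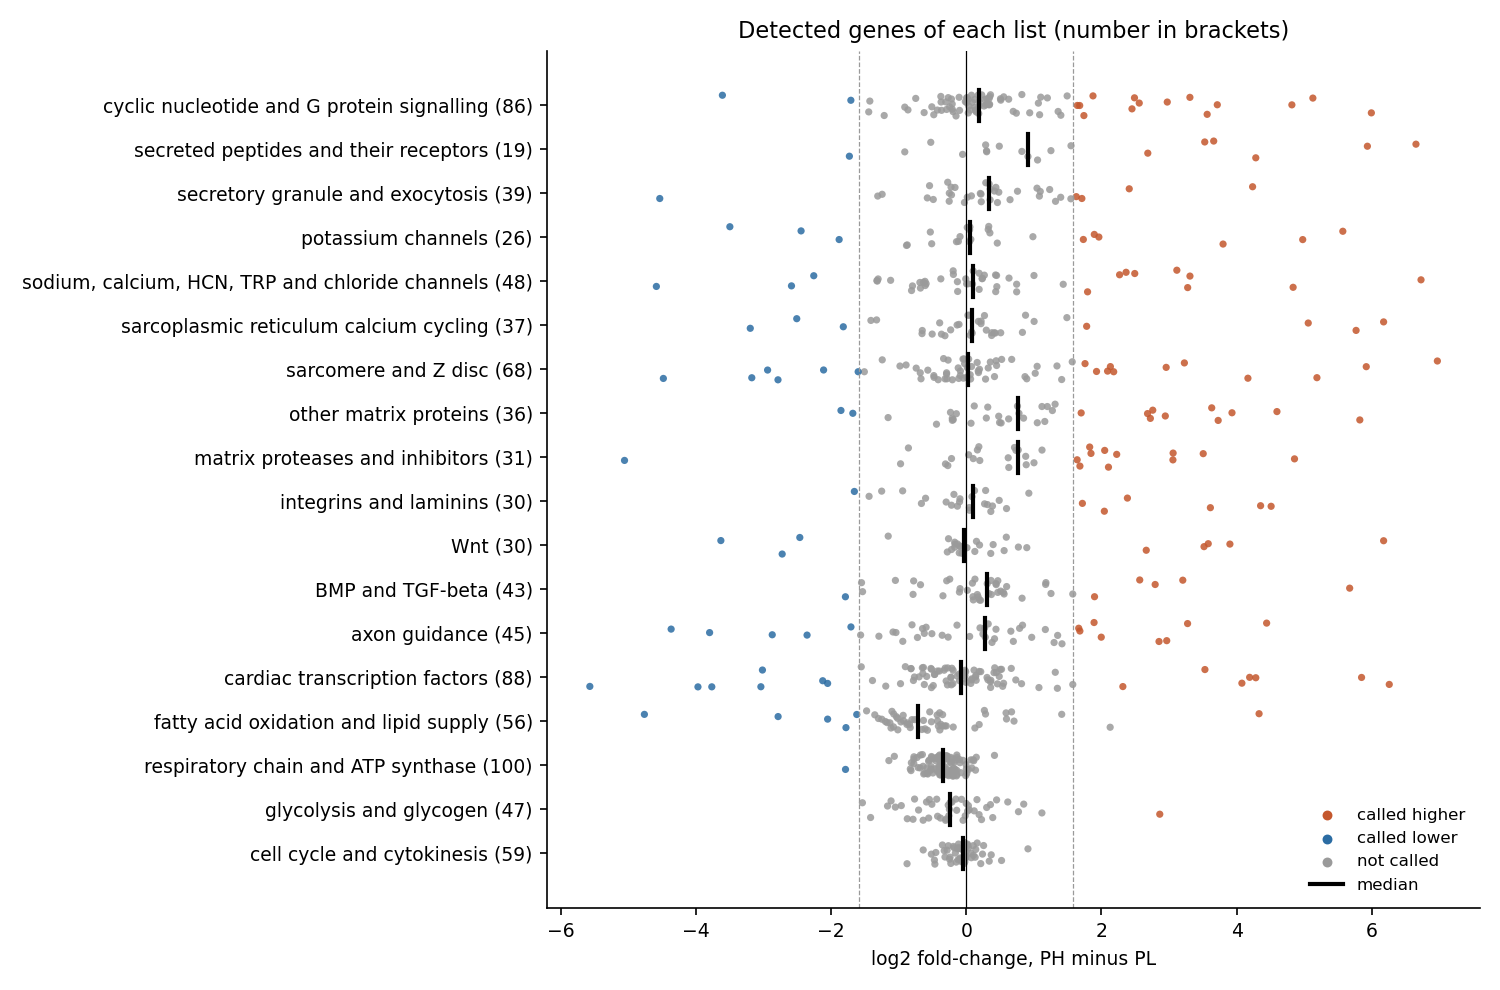
Log2 fold-change (PH minus PL) of every detected gene of 18 gene lists, with a point per gene (orange called higher, blue called lower, grey not called) and a black bar for the median. Dashed lines mark 3-fold. Points of the fatty acid and respiratory chain lists lie left of 0 as a group, whereas most other lists have called genes on both sides.

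Of 54 genes of secreted peptides and their receptors, 19 were detected, 6 (11.1%) were called higher and 1 (1.85%) lower, beside 2.61% and 1.3% of all genes. The median log2 fold-change was 0.91 (0.82 with bounded genes at their bound, 0.52 with the floor and 0.57 with normexp). *Adm* (adrenomedullin, a vasodilator) had signals of 106, 240.3, 206 and 179 in PL and 2068, 1785, 2138 and 2111 in PH, 11.5-fold higher. *Rxfp1*, the relaxin receptor, had 50.6, 92.9, 66.4 and 62.7 and 1017, 827, 812 and 734, and *Uts2b* (urotensin 2B, a vasoactive peptide) was at least 17.4-fold higher. *Edn1* (endothelin 1) was 3.31-fold lower, with 2 of 4 PH microarrays well above background, and not called with normexp (log2 -0.65). *Fndc5*, the precursor of irisin, was 2.08-fold higher (adjusted p = 5.04e-05), below the limit of 3-fold.

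Of 69 genes of secretory granules and exocytosis, 39 were detected, 5 (7.25%) were called higher and 1 (1.45%) lower, beside 2.61% and 1.3% of all genes, and without PL replicate 2 or 5 the higher ones were 2 or 3. *Pam*, the enzyme that amidates peptides and a main membrane protein of atrial granules, had signals of 1390.1, 1785, 1927 and 1414 in PL and 6226, 9423, 12348 and 7491 in PH, 5.32-fold higher. *Corin*, the protease that cleaves the natriuretic peptide precursor, was 3.09-fold higher (log2 1.51 without PL replicate 2 and 1.56 without PH replicate 3, 1.58 when scaled to the 75th percentile and 1.53 with normexp, all below the limit) and *Sytl2*, an adaptor of granule docking, 18.9-fold, with 3 of 4 PL microarrays well above background. The log2 fold-change of *Sytl2* was 4.24, with the floor 4.11 and with normexp 2.57. Abundant members differed less. *Cpe* (carboxypeptidase E) was 1.28-fold higher (adjusted p = 0.011) and *Cplx2* (complexin 2) had 32189 ± 5942 in PL and 27092 ± 7565 in PH (adjusted p = 0.511).

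Of 90 matrix proteases and inhibitors, 31 were detected, 11 (12.2%) were called higher and 1 (1.11%) lower, beside 2.61% and 1.3% of all genes, with a median log2 fold-change of 0.77 (0.71 with bounds). *Adamts8* and *Adamts15*, proteases of the proteoglycan-cleaving ADAMTS family that are neighbours on chromosome 9, both stood out. *Adamts8* had signals of 206, 115, 191 and 166 in PL and 3621, 4223, 6728 and 5152 in PH, 29-fold higher, and *Adamts15* had 172, 111, 193 and 96.3 and 1202, 887, 1624 and 989, 8.33-fold higher. Versican, a proteoglycan that ADAMTS proteases cleave, is encoded by *Vcan*, which went the other way, with 58, 84, 120.3 and 94.2 in PL and 27.5, 16.3, 24.1 and 48.8 in PH, 3.20-fold lower with 2 of 3 probes called and 3 of 4 PH microarrays well above background. Its log2 fold-change was -1.52 without PL replicate 4 and -1.44 without PH replicate 3, and -0.66 with normexp, all below the limit. *Adamtsl2* was 8.35-fold higher and *Timp3*, an inhibitor of metalloproteases, 3.21-fold (log2 1.55 without PL replicate 3 and 1.54 when scaled to the 75th percentile, below the limit), whereas *Adamtsl5* was at least 15.6-fold lower.

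Of 81 other matrix proteins, 36 were detected, 13 (16%) were called higher and 3 (3.70%) lower, beside 2.61% and 1.3% of all genes, with a median of 0.77 (0.69 with bounds and 0.47 with normexp). *Sparc*, a secreted protein that binds collagen, had signals of 34112, 49564, 48008 and 32859 in PL and 116664, 137303, 142737 and 130257 in PH, 3.25-fold higher (log2 1.37, below the limit, when scaled to the 75th percentile). *Matn2* (matrilin 2) was at least 23.5-fold, *Fras1*, a basement membrane protein, 12.4-fold and *Nid2* (nidogen 2) 4.12-fold higher. The fibroblast marker *Fbln1* (fibulin 1) had 25.1, 81.3, 88.6 and 26.8 in PL, of which 3 were well above background, and 749.6, 1415, 1323 and 1187 in PH, and all 3 of its probes were called. Of the 6 detected fibroblast genes, PH lay above PL without overlap for 2 and below for 0, beside 18.6% and 14.6% of all detected genes. *Col1a2* and *Postn* did not follow *Fbln1*, with *Col1a2* at 383 ± 198 in PL and 274 ± 60.5 in PH and *Postn* at least 2.85-fold lower (log2 fold-change -2.83, and -3.47 without PL replicate 5). The call of *Postn* was lost with the P2 microarrays alone (adjusted p = 0.062) and with normexp (log2 fold-change -0.66).

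Laminins and their receptors are of interest because ITGA6 binds laminins. Of 46 integrin and laminin genes, 30 were detected, 6 (13%) were called higher and 1 (2.17%) lower, beside 2.61% and 1.3% of all genes. The 6 include *Itga6* itself, the gene of the protein used for the gate, so that the share is not independent of the sort. *Lamb3*, a laminin chain of epithelial basement membranes, had signals of 78.9, 102, 130.0 and 86.6 in PL and 1230.5, 1022, 1256 and 1284 in PH, 12.2-fold higher. *Itga11*, a collagen receptor chain, was at least 4.78-fold higher (not called with normexp, log2 1.46) and *Itga9*, a receptor chain for tenascin, 3.15-fold lower (log2 -1.55 without PL replicate 2 and -1.56 without PH replicate 5, below the limit). Of 44 collagen genes, 15 were detected and 1 (2.27%, near the 2.61% of all genes) was called higher, *Col4a6* of basement membranes, with 1 of its 2 probes called. By adjusted p alone 6 of the 15 were higher and 0 lower with limma, beside 18.3% and 14.2% of all detected genes. An unadjusted p under 0.05 was found for 8, beside 5654 of all 11751 detected genes. The median log2 fold-change was 0.55, but 0.24 with normexp and 0.27 with the median over the probes of a gene. *Col4a1* and *Col4a2*, relatives of *Col4a6*, were 1.47-fold and 1.47-fold higher (adjusted p = 0.0108 and 0.0361), below the limit.

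Growth factor ligands were called in both directions. Of 81 genes of the FGF, VEGF, PDGF, IGF, EGF and neuregulin families, 37 were detected, 9 (11.1%) were called higher and 2 (2.47%) lower, beside 2.61% and 1.3% of all genes. *Fgf7* was at least 17.4-fold and *Angpt2*, a regulator of vessels, at least 3.60-fold higher in PH (*Angpt2* not called with normexp, log2 1.02). *Fgf9* had signals of 734, 803, 699.9 and 661 in PL and 47.6, 45.3, 56.7 and 40.8 in PH, 15.3-fold lower. *Pdgfc* was 12.8-fold and *Igfbp2*, which binds insulin-like growth factors, 8.81-fold higher, whereas the lymphatic growth factor *Vegfc* was 3.31-fold lower (log2 -1.51 without PH replicate 2 and -1.32 with normexp, below the limit). Of 78 BMP and TGF-β genes, 43 were detected, 6 (7.69%) were called higher and 1 (1.28%) lower, the latter share close to that of all genes. *Bmp10*, an atrial ligand that drives growth of the embryonic ventricle, had 3.47, 3.43, 21.5 and 13.5 in PL, none well above background, and 499.7, 316, 313 and 474 in PH, at least 20.1-fold higher. *Bmp5* was at least 1.43-fold higher, a call that was lost with the floor (log2 fold-change 0.51) and with normexp (0.31). The gene called lower was *Bmp4*, with 268, 325, 304 and 213 in PL and 65.2, 104, 59.9 and 98 in PH, 3.45-fold, and 1 of its 2 probes was called. With normexp its log2 fold-change was -1.25 and the call was lost.

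Secreted Wnt antagonists were called in both directions. Of 66 Wnt genes, 30 were detected, 8 (12.1%) were called higher and 4 (6.06%) lower, beside 2.61% and 1.3% of all genes. *Sfrp1* and *Sfrp5*, which bind Wnt proteins, were 14.9-fold and 12-fold higher in PH, with 1 and 2 of 4 PL microarrays well above background. Their log2 fold-changes were 3.90 and 3.58, with the floor 3.21 and 3.45, and with normexp 1.5 and 1.99, where the call of *Sfrp1* was lost. *Wif1*, another Wnt-binding inhibitor, had signals of 591, 611, 687 and 494 in PL and 45.1, 43.5, 66.2 and 40 in PH, 12.4-fold lower, and the ligand *Wnt9a* was 5.51-fold lower, with 3 of 4 PH microarrays well above background and no call with normexp (log2 -1.12). Of 33 Notch genes, 16 were detected and 3 (9.09%) were called higher, beside 2.61% of all genes, among them the ligand *Jag1*, which was at least 7.69-fold higher, and *Hey1*, an atrial counterpart of *Hey2*, which was 7.10-fold higher with 2 of 4 PL microarrays well above background. Neither was called with normexp (log2 fold-changes of 1.43 and 1.54). The 1 gene called lower was *Hey2*, a ventricular repressor downstream of Notch, which was at least 13.2-fold lower. Both *Hey1* and *Hey2* are on the chamber lists.

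Of 77 axon guidance genes, 45 were detected, 8 (10.4%) were called higher and 5 (6.49%) lower, beside 2.61% and 1.3% of all genes. *Slit3* had signals of 34, 48.9, 115 and 40.9 in PL and 1077, 1214, 1220.3 and 1099 in PH, 21.8-fold higher, and the receptor *Epha4* was 7.82-fold higher. *Efnb3* (ephrin B3) had 7196, 8677, 4454 and 6476 in PL and 1216, 1388, 1209 and 1287 in PH, 5.12-fold lower. *Sema3b* was 7.31-fold and *Ntn4* (netrin 4) at least 6.52-fold lower (*Ntn4* not called with normexp, log2 -1.52). Ligands were thus called in both directions.

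Of 6 Iroquois transcription factors measured, 5 were called lower in PH, beside 1.3% of all genes. The other, *Irx6*, was added after its values were seen and was well above background on 0 of 8 microarrays. *Irx1* had signals of 311, 387, 516 and 422 in PL and 24.4, 24.5, 30.1 and 42.6 in PH, and *Irx3* had 424, 453, 643 and 503 and 22.9, 28.3, 39.1 and 40.7. For both, all PH microarrays were well above background and lay below all PL microarrays, 13.6-fold and 15.7-fold lower. *Irx2* was at least 4.78-fold and *Irx5* at least 2.18-fold lower, and *Irx4* was named above with the chamber markers. With normexp the calls of *Irx2* and *Irx5* were lost (log2 fold-changes of -0.94 and -0.60), and with the floor that of *Irx5* (-1.12). *Irx1*, *Irx2* and *Irx4* form 1 cluster on chromosome 13, and *Irx3* and *Irx5* belong to another on chromosome 8. IRX3 and IRX5 are known to shape conduction and repolarization in the ventricle.

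Among 219 cardiac transcription factors 88 were detected, and 8 (3.65%) were called in each direction, beside 2.61% and 1.3% of all genes. The higher ones include *Nr2f1*, *Nr2f2* and *Tbx5* and the lower ones *Irx4* and *Hand1*, which are on the chamber lists. *Lmo2*, a bridging factor of blood and vessel development, had signals of 54.6, 73.4, 94.7 and 104 in PL and 1453, 1425, 1626 and 1691 in PH, 19.5-fold higher, and *Tbx2*, a repressor of chamber genes, was at least 5.57-fold higher (not called with normexp, log2 1.14). *Hopx*, a homeodomain protein without DNA binding, was 1.96-fold lower (adjusted p = 1.65e-06), below the limit of 3-fold.

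Genes of the pacemaker and conduction system were called higher in part. Of 18 genes, 13 were detected, 7 (38.9%, beside 2.61% of all genes) were called higher in PH and 0 lower with limma. By adjusted p alone 9 were higher and 1 lower, beside 18.3% and 14.2% of all detected genes. An unadjusted p under 0.05 in either direction was found for 11 of the 13, beside 5654 of all 11751 detected genes. *Vsnl1*, a calcium sensor of the sinus node, was at least 8.04-fold, *Cpne5* 12-fold and the connexin *Gjd3* at least 2.72-fold higher. With normexp the calls of *Vsnl1* and *Gjd3* were lost (log2 fold-changes of 1.51 and 0.63), and with the floor that of *Gjd3* (1.44). *Hcn4*, the main pacemaker channel, had 4.21 ± 0.224 in PL and 4.92 ± 1.52 in PH, and the sinus node factor *Shox2* 3.33 ± 0.0238 and 3.35 ± 0.0457. Both were well above background on 0 of 8 microarrays, as was *Isl1*. The T-type calcium channel *Cacna1g* had 1768 ± 489 in PL and 1156 ± 319.5 in PH (adjusted p = 0.201). *Hcn4* and *Shox2* were chosen after their values were seen.

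Most genes of fatty acid metabolism were lower in PH by adjusted p, but by less than 3-fold. Of 62 genes, 56 were detected. Few passed the 3-fold limit, with 2 (3.23%) higher and 5 (8.06%) lower beside 2.61% and 1.3% of all genes, but 40 of the 56 were lower in PH and 6 higher at an adjusted p of 0.05 or less, beside 14.2% and 18.3% of all detected genes. The median log2 fold-change was -0.71. When each gene was centred on its mean over the 8 microarrays, the list medians were 0.34, 0.39, 0.29 and 0.39 in PL and -0.51, -0.37, -0.30 and -0.29 in PH on the log2 scale, so that no PH microarray reached any PL microarray. The count by adjusted p alone and the division into steps were chosen after the values were seen.

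By step, 15 of 16 detected enzymes of β-oxidation and 4 of 4 genes of the carnitine shuttle were lower, with medians of -1.02 and -0.82. *Hadhb*, a subunit of the trifunctional protein, had signals of 26286, 29924, 27459 and 29328 in PL and 10016, 10922, 12153 and 13007 in PH, 2.46-fold lower (adjusted p = 9.41e-08). *Hadha*, its partner, was 2.16-fold lower, *Acadm* and *Acadvl*, the medium- and very-long-chain acyl-CoA dehydrogenases, 2.38-fold and 2.25-fold, and *Cpt1b*, which admits fatty acids to mitochondria, 1.75-fold. The uptake protein *Cd36* was 1.95-fold lower. Of the regulators, *Ppargc1b* was 4.14-fold (2 of 4 PH microarrays well above background, not called with normexp, log2 -0.90), *Ppargc1a* 1.55-fold and *Ppara* 1.43-fold lower. Apart from *Ppargc1b*, these genes were named after their values were seen and lie below the limit of 3-fold.

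Some genes around the pathway differed by much more. *Plin5*, which coats lipid droplets at mitochondria, had signals of 6677, 6191, 6951 and 7393 in PL and 856, 865, 1176 and 1085 in PH, 6.89-fold lower (adjusted p = 7.87e-07). *Acot1* and *Acot2*, neighbouring acyl-CoA thioesterases with similar sequences that probes may not separate, were 3.07-fold and 3.43-fold lower. *Acot1* fell below the limit without PL replicate 3 or 5 or PH replicate 2 or 4, with log2 fold-changes of -1.50, -1.46, -1.57 and -1.47, and neither gene was called with normexp (-1.58 and -1.45). *Fabp5*, a fatty acid binding protein of skin and endothelium, went the other way, with 269, 312, 309.5 and 277 in PL and 3059, 6043, 6932 and 9268 in PH, 20.2-fold higher, while the heart form *Fabp3* was 1.27-fold lower (adjusted p = 0.0047).

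The respiratory chain moved in the same direction by less. Of 100 detected genes, 57 were lower in PH and 1 higher by adjusted p alone, beside 14.2% and 18.3% of all detected genes, and 1 was called lower by the 3-fold rule. The median log2 fold-change was -0.35, and the list medians of the single microarrays were 0.09, 0.13, 0.18 and 0.24 in PL and -0.23, -0.22, -0.13 and -0.11 in PH. All 4 subunits of complex II were lower, with a median of -0.72, as were 7 of 9 of complex III (-0.47), 23 of 38 of complex I (-0.35), 10 of 18 of ATP synthase (-0.33) and 6 of 16 of complex IV (-0.20). *Sdha* of complex II was 2.09-fold lower and the mitochondrial creatine kinase *Ckmt2* 2.21-fold, both named after their values were seen. The gene called by the 3-fold rule was *Cox6b2*, a complex IV subunit best known from testis, with 826, 909, 1052 and 1156 in PL and 288, 289, 245 and 316 in PH (not called with normexp, log2 -1.57). Scaling by the 75th percentile in place of quantiles moved the median of all probes to -0.14 and of detected genes to -0.03, and the respiratory chain median to -0.63.

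**Figure D4:**
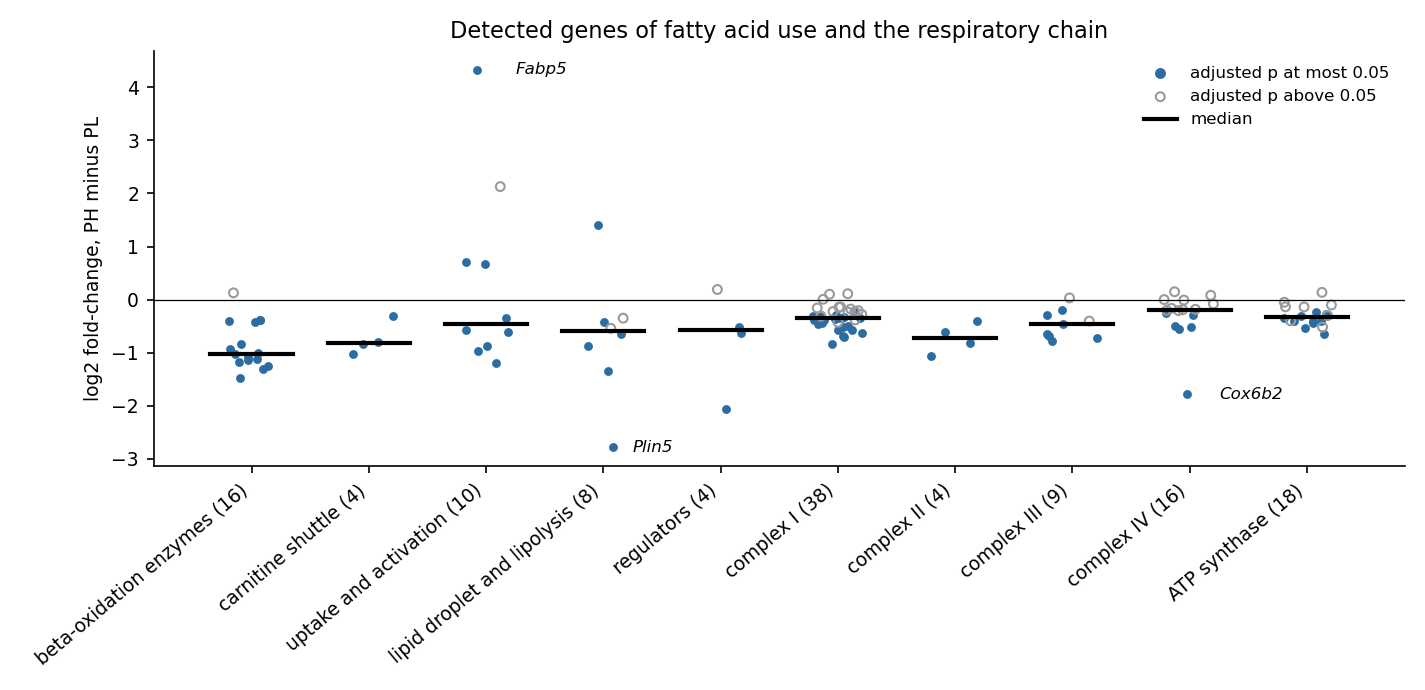
Log2 fold-change (PH minus PL) of detected genes of fatty acid use (left 5 groups) and of the respiratory chain and ATP synthase (right 5 groups), with the number of genes in brackets. Filled points had an adjusted p of at most 0.05 and black bars are medians. All medians lie below 0, that of β-oxidation at -1.02, whereas *Fabp5* lies at 4.33 and *Plin5* at -2.78.

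For genes of glucose use and proliferation the medians lay nearer to 0. Of 47 detected genes of glycolysis and glycogen, 18 were lower and 7 higher by adjusted p alone, beside 14.2% and 18.3% of all detected genes, 1 was called higher and 0 lower, and the median was -0.24 (-0.45 when scaled to the 75th percentile). *Aldoa*, for example, had 170105 ± 12637 in PL and 162329.8 ± 14777 in PH, and *Ldha* 80838 ± 11426 and 65968 ± 10816. *Phkg1*, a subunit of phosphorylase kinase, was the gene called higher, with 84.2, 105, 104 and 58 in PL and 646, 696, 564 and 591 in PH. Of 59 detected cell cycle and cytokinesis genes, 0 were called with limma or with the test of the study's methods, 3 were lower and 2 higher by adjusted p alone, 12 had an unadjusted p under 0.05, and the median was -0.05. Their list medians, centred as above, were 0.26, 0.48, -0.16 and -0.35 in PL and -0.09, 0.22, -0.10 and -0.12 in PH, so that the fractions overlapped. Without PL replicate 5, 8 were lower by adjusted p alone and the median was -0.21, and without PL replicate 2 or 3 the median was 0.00 or 0.06. Of 22 detected immediate early and heat shock genes, 0 were called with either test, 2 were lower and 1 higher by adjusted p alone, 7 had an unadjusted p under 0.05, and the median was -0.09.

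Transport genes were called in both directions. Of 352 solute carriers 168 were detected, and 19 (5.40%) were called higher and 10 (2.84%) lower, beside 2.61% and 1.3% of all genes, with a median log2 fold-change of -0.01. *Slc7a7*, a light chain of amino acid transport, had signals of 119, 183, 184 and 152 in PL and 4715, 4460.5, 4731 and 3808 in PH, 28.1-fold higher. The zinc and iron transporter *Slc39a8* was 43.3-fold higher with 2 of 4 PL microarrays well above background (log2 fold-change 5.43, and 4.77 without PL replicate 5, 4.65 with the floor and 3.07 with normexp). The mitochondrial carrier *Slc25a34* was lower in PH, with 1726, 2361, 2789.9 and 2992 in PL and 175, 213, 262 and 276 in PH, 10.6-fold. *Slc1a5*, a glutamine transporter, was 5.53-fold lower with both probes called. *Slc25a4*, the ADP/ATP carrier of the inner mitochondrial membrane, had 245206 ± 13582 in PL and 216364 ± 19117 in PH (adjusted p = 0.277).

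Of 119 genes of the intercalated disc, cadherins and connexins, 42 were detected, and 5 (4.2%) were called higher and 2 (1.68%) lower, beside 2.61% and 1.3% of all genes. *Cdh2* (N-cadherin, the cadherin of CMs) had signals of 24954, 26469, 31216 and 25285 in PL and 14472, 16214, 16868 and 15597 in PH, without overlap and 1.70-fold lower (adjusted p = 5.78e-05), below the limit. The catenin *Ctnna1* had 28351 ± 4292 and 36018 ± 4513 (adjusted p = 0.063). Of 30 retinoid genes, 15 were detected, and 2 (6.67%) were called higher and 0 lower with limma, beside 2.61% and 1.3% of all genes. By adjusted p alone 3 were higher and 1 lower, beside 18.3% and 14.2% of all detected genes. Both genes called higher encode carriers of retinol in blood, *Ttr* (transthyretin) at 3.80-fold with 3 of 4 PL microarrays well above background and *Rbp4* (retinol-binding protein 4) at at least 1.46-fold with 3 of 4 PH microarrays well above background. The call of *Rbp4* was lost with the floor (log2 fold-change 0.54, adjusted p = 0.555) and with normexp (0.63), and that of *Ttr* with normexp (0.99).

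Whether a difference between the fractions was larger or smaller at P2 was tested as the difference of PH against PL and EH against EL. This difference was called more positive at P2 for 217 genes (0.915%) and more negative for 237 genes (1%). Of the 619 genes higher in PH, 224 were also called higher in EH, beside 480 of all 23703 genes, and 170 had a called stage difference in the same direction. Of the 308 lower genes, 87 were also called lower in EH, beside 161 of all 23703 genes, and 112 had a called stage difference. All E15.5 microarrays lay on other slides than the P2 microarrays, but each slide held both fractions of its stage. The isolation also differed, by ERBB-2 at E15.5 and by bead depletion at P2, so that stage and isolation cannot be told apart.

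Both guanylate cyclase subunits, the ADAMTS neighbours and the Iroquois genes belonged to those with a stage difference. *Gucy1b1* had a log2 fold-change of 0.44 at E15.5 and 5.13 at P2 (difference 4.69, adjusted p = 8.98e-07). Its E15.5 signals were 381 ± 51.2 in EL and 514 ± 44 in EH. The stage difference of *Gucy1a1* was 4.12 and that of *Adamts8* 3.93. *Adamts15* had -0.65 at E15.5 (difference 3.71, adjusted p = 6.31e-05). *Irx3* had 0.91 at E15.5 and -3.97 at P2 (difference -4.88, adjusted p = 2.01e-06), and *Irx1*, *Irx2*, *Irx4* and *Irx5* also had called differences in this direction, although *Irx2* and *Irx5* were at background in PH and *Irx5* also in EL. *Myh6*, which was not called at P2, was 69333 ± 9106 in EL and 246760.2 ± 14879.7 in EH (difference -1.93, adjusted p = 6.55e-06). In contrast, the stage difference of *Sln* was -0.04 (adjusted p = 0.994) and that of *Pde2a* -0.13 (adjusted p = 0.924).

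**Figure D5:**
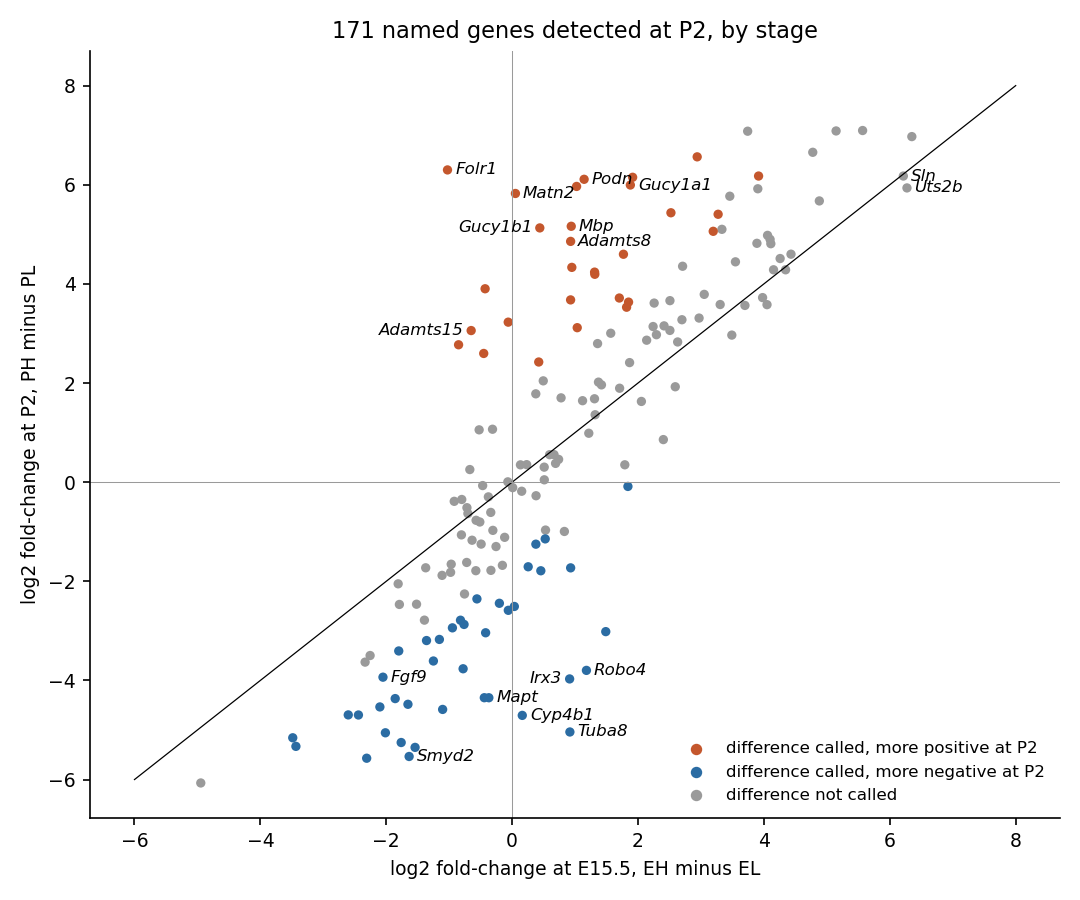
Log2 fold-change at P2 (PH minus PL, vertical axis) against that at E15.5 (EH minus EL, horizontal axis) for the genes named here that were detected at P2, with a point per gene and a diagonal line of equal change. Orange and blue points had a called stage difference, and points of genes at background in a fraction, such as *Folr1* and *Matn2* in PL, show fitted values and not measured sizes. *Gucy1b1*, *Podn* and *Adamts8* lie far above the diagonal and *Irx3* and *Robo4* far below, whereas *Sln* lies near it.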

How the data were processed

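Sorted CMs from pools of hearts were measured on 16 single-colour microarrays of 60-base probes, after T7 amplification of 10 ng RNA with Cy3. The authors scanned the microarrays, extracted signals with Feature Extraction (version 10.7.3.1, probe positions on mm9, per the submitters' processing notes and the file headers), and deposited quantile-normalized log2 values as a matrix. The deposited scanner files hold processed signals as intensities and other columns with flags, among them the flag "well above background" used here. Deposited values equalled the processed intensities without outlier spots, averaged over spots of a probe and quantile normalized, with a median absolute difference of 0.000294 log2 units. There were 59305 spots for 55681 probes, 8 values were missing and were left out of the fit, and 0 probes were saturated.

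PL and PH were compared with limma (version 3.58.1, R 4.3.3) on the deposited log2 values in 1 model of all 16 microarrays with a mean per group, because the methods fit all groups together with analysis of variance. The limits, an adjusted p of 0.05 and 3-fold, follow the methods, whose own test (analysis of variance with Tukey's test after it) was run as an alternative. The stage difference is a contrast of the same model. The script was tested on simulated data first. Of the 55681 probes, 32831 had a gene symbol, 27503 of them through RefSeq accessions, for 23703 symbols, and names on the microarray can be older (*Gucy1a3* and *Gucy1b3* for *Gucy1a1* and *Gucy1b1*, *Gm1078* for *Sbk3*, *Uts2d* for *Uts2b*). A gene was read from 1 probe, RefSeq mRNA probes first and then the brightest, and genes were named by a fixed rule (chamber markers, largest called changes, up to 5 called genes per direction and 3 brightest genes of each list, largest stage differences). A few genes that the rule or the lists hold are not reported here. The members and the 36 lists were chosen with earlier results of these data known. The number of microarrays, 4 per group, limits the precision. Within a group the pools were separate, but the hearts of an experiment were sorted into both fractions. Plots were drawn with matplotlib 3.10.9 in Python 3.11.15.

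The limma fit was repeated with the scanner intensities, 75th percentile scaling, normexp background correction (offset 50), a floor at the lowest signal well above background, detected probes only, P2 microarrays only, the replicate number or slide as a block, each replicate left out, other choices of probe and a 2-fold limit. Apart from the fit of detected probes only, values of all probes, not only of named genes, entered each fit.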

Additional observations from a re-analysis of the deposited data

Results flagged for a closer look

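Some microarrays lay far from the other 3 of their group in the signal of a named gene, which chance alone gives in about 1 in 20 groups. Where the gene exceeded background throughout the group, these were *Gja5* in PH replicate 2 (11800), *Cnn1* in PL replicate 3 (748), *Wt1* in PH replicate 3 (41.6), *Corin* in PL replicate 2 (449), *Cacna1s* in PL replicate 3 (226), *Cpne5* in PL replicate 4 (1120), *Kcnj8* in PH replicate 3 (85.3), *Cd36* in PL replicate 4 (1560), *Ckmt2* in PL replicate 5 (6420) and *Slc1a5* in PH replicate 2 (55.8), with the signal in brackets. No replicate stood out in all of them. In a further 12 cases none of the 4 microarrays was well above background, so that the values carry no order: *Wt1* in PL replicate 2 (10.6), *Folr1* in PL replicate 4 (9.63), *Rprm* in PL replicate 5 (6.1), *Cyp4b1* in PH replicate 2 (4.45), *Kcnj4* in PH replicate 3 (4.96), *Itga11* in PL replicate 5 (10.8), *Irx5* in PH replicate 3 (11.3), *Pde9a* in PL replicate 3 (7.72), *Hcn4* in PH replicate 5 (7.2), *Rbp4* in PL replicate 5 (6.38), *Bmp5* in PL replicate 5 (6.4) and *Angpt2* in PL replicate 3 (14.9).

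The change between PH and PL differed from that between EH and EL by test for the following named genes, with the difference of the log2 fold-changes (P2 minus E15.5) in brackets and limma's adjusted p at most 0.05 in each. More positive at P2 among receptors and signalling genes were *Gucy1a1* (4.12), *Gucy1b1* (4.69), *Folr1* (7.33), *Antxr1* (4.94), *Gnao1* (2.01) and *Rprm* (4.24). Among pigment cell and nerve genes they were *Mlana* (3.62) and *Mbp* (4.22). Among ion channels, transporters and secretory genes they were *Cacnb3* (2.08), *Ryr3* (1.87), *Slc39a8* (2.91), *Sytl2* (2.93), *Adm* (1.71) and *Gja5* (2.13). Matrix, ligand and muscle genes with a more positive difference were *Podn* (4.97), *Matn2* (5.77), *Adamts8* (3.93), *Adamts15* (3.71), *Fras1* (1.78), *Fbln1* (2.83), *Pdgfc* (2.75), *Sfrp1* (4.33), *Dkk3* (2.26), *Mylk4* (3.29) and *Cnn1* (2.00). Transcription factors were *Tbx2* (2.88) and *Wt1* (3.05), and carriers or filament proteins *Fabp5* (3.38), *Rbp4* (2.83) and *Krt19* (3.62).

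More negative at P2 were the Iroquois genes *Irx1* (-2.99), *Irx2* (-2.62), *Irx3* (-4.88), *Irx4* (-3.26) and *Irx5* (-4.50) and the nuclear or chromatin proteins *Prdm16* (-1.90), *Tox* (-2.09), *Smyd2* (-3.90) and *Shox2* (-1.66). *Shox2* was well above background on 0 of 8 P2 microarrays. Contractile and cytoskeletal genes were *Myl2* (-2.02), *Myh6* (-1.93), *Myh7* (-2.83), *Ankrd23* (-1.99), *Myot* (-2.42), *Acta2* (-1.96), *Tuba8* (-5.96), *Mapt* (-3.98), *Ush1c* (-1.67) and *Plekhh1* (-3.81). Metabolic genes were *Cyp4b1* (-4.87), *Slc25a34* (-1.60), *Ckmt2* (-1.67), *Ddc* (-2.43) and *Dct* (-3.91). Genes of calcium, channels and cyclic nucleotides were *Pln* (-1.84), *Itpr2* (-2.54), *Abcc9* (-2.24), *Cacng6* (-3.48), *Scn4b* (-2.52), *Adcy9* (-2.36) and *Pde5a* (-1.96). Ligands, guidance and surface proteins were *Edn1* (-2.66), *Bmp4* (-2.24), *Fgf9* (-1.88), *Ntn4* (-2.51), *Sema3b* (-2.11), *Efnb3* (-1.80), *Robo4* (-4.98), *Cdh3* (-2.26), *Lrtm1* (-3.49), *Adamtsl5* (-3.04) and *Itgam* (-1.63). For 24 of these 72 genes, *Dct*, *Mlana*, *Wt1*, *Folr1*, *Rprm*, *Prdm16*, *Adamtsl5*, *Tuba8*, *Cyp4b1*, *Cdh3*, *Tox*, *Cacng6*, *Scn4b*, *Mylk4*, *Myot*, *Matn2*, *Ntn4*, *Irx2*, *Irx5*, *Tbx2*, *Slc25a34*, *Shox2*, *Rbp4* and *Krt19*, no microarray of at least 1 of the 4 groups was well above background, so that the difference is a fitted value and not a measured size.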

How the results depend on the processing

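With normexp background correction, 276 probes were called higher and 142 lower (214 and 103 genes), and 95 and 138 probes had a more positive or more negative stage difference. With signals floored at the lowest value well above background, 572 probes were higher and 302 lower, and 409 genes were higher. At a 2-fold limit the counts were 1572 and 1124 probes, 1015 and 620 genes, and 564 and 503 probes for the stage difference. The cause was not tested for normexp, whereas the floor shortens fold-changes of dim genes by its construction. All other alternatives stayed within 1.5 times. Leaving out 1 microarray gave 946 to 1008 probes higher and 491 to 580 lower, 603 to 654 and 298 to 329 genes, 301 to 356 and 291 to 368 probes for the stage difference, and 38 to 40 and 52 to 60 lower genes of fatty acid use and the respiratory chain by adjusted p alone. The methods' test gave 947 probes higher and 497 lower.

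Same-numbered PL and PH microarrays deviated from their group means with correlations of 0.402, 0.228, -0.044 and 0.615, and not every P2 microarray correlated best with its own number. Those of EL and EH had 0.281, 0.166, 0.389 and 0.436, and each correlated best with its own number. The hearts of an experiment were sorted into both fractions, but no label says that a number marks an experiment. Since not every P2 pair passed 0.1, the main fit had no replicate block, although every E15.5 pair passed. With the replicate block, 946 probes were higher and 501 lower, 609 and 302 genes, and 41 and 66 lower genes of the metabolic lists. For the stage difference, 309 probes were more positive and 409 more negative with the block, beside 335 and 335 without it.

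Of 135 called genes named here, 90 kept the call under every alternative. Normexp lost 37 of them and the floor 8 (*Wt1*, *Scn4b*, *Mylk4*, *Myot*, *Irx5*, *Gjd3*, *Rbp4* and *Bmp5*, also lost with normexp), all in the direction found first, and other probes of *Itga6*, *Folr1*, *Antxr1*, *Cacna2d2*, *Col4a6*, *Pde5a* and *Bmp4* lost it. Scaling to the 75th percentile lost *Corin*, *Sparc* and *Timp3*, and the fit of P2 microarrays alone lost *Postn*. No direction of a called gene turned under any alternative. Of 1440 counts for lists, 97 moved by over 1.5 times, 33 with normexp, 20 with the 2-fold limit, 11 with the floor and 19 when a microarray was left out. On a P2 microarray, 35.7% to 40.6% of probes stood well above background, and below it differences cannot be measured.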

Other observations

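Some called genes were neighbours on their chromosome. In the RefSeq order of 20155 genes measured here, of which 588 were called higher and 278 lower in PH, 39 pairs of adjacent genes were both higher, 27 were both lower and 13 had opposite calls. Pairs higher in PH included *Gucy1b1* with *Gucy1a1*, *Adamts15* with *Adamts8*, *Sbk2* with *Sbk3* and *Cav2* with *Cav1* (caveolins of membrane caveolae). Pairs lower in PH included *Irx1* with *Irx2*, *Irx3* with *Irx5*, *Acot2* with *Acot1* and *Tubb2a* with *Tubb2b* (β-tubulins of nearly the same sequence, which probes may not separate). *Abcc8* was higher and its neighbour *Ush1c* lower, and *Cacna2d3* was higher and *Lrtm1*, which lies beside it, lower. *Sbk2*, *Cav1*, *Cav2*, *Tubb2a*, *Tubb2b* and *Cacna2d3* were chosen after their values were seen. No count for chance pairs was made, and why neighbours shared a call was not tested.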
